A study of Homo sapiens with 6 samples.

Results

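GPCPD1 and 9 genes of glycerophosphocholine and choline metabolism were followed in AC16 cells given KCl. The 10 genes were taken by symbol from a table of 19386 genes: GPCPD1, GDPD1, GDPD5, PNPLA6, CHKA, CHKB, PCYT1A, SLC44A1, SLC44A2 and CHPT1. All 10 were found, and all 10 passed the filter on low counts that left 13044 genes. GPCPD1 was chosen by its log2 fold change between KCl and control, as one of the steepest falls, and the other 9 by function with that comparison known. The difference between KCl and control in these 10 genes is therefore described, and nothing is concluded from a test of them.

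AC16 is a line derived from human adult ventricular cells fused with virus-transformed fibroblasts. Its wild-type cells were either left untreated (3 libraries) or given 26 mM KCl (3 libraries), and RNA of both groups was taken at 16 h, per the labels. No group was given another salt or solute, so potassium, chloride and the added solute cannot be told apart. Potassium depolarizes cells and is the arresting agent of cardioplegia, and the series title names NRF2 and oxidative stress. Libraries were strand-specific and made from mRNA. Separate cultures for the 3 libraries of a group are not stated, and AC16 is a proliferating line with no adult muscle around it. The labels call the cells cardiomyocytes. Of 13 cardiomyocyte markers only ACTN2, TTN and GATA4 passed the filter, and TNNT2, MYBPC3, NPPA and NKX2-5 had no read in any library. Library totals ran from 18601977 to 19286588 estimated reads. Over all tested genes, 2621 were called higher and 2342 lower after KCl (edgeR quasi-likelihood test, Benjamini-Hochberg adjusted p under 0.05). On log2(FPKM + 1) limma called 1594 higher and 3187 lower, and on log2(TPM + 1) 1859 higher and 2659 lower.

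Glycerophosphocholine is what remains of phosphatidylcholine, the main membrane phospholipid, when both fatty acids are removed. PNPLA6, also called neuropathy target esterase, makes it by removing acyl chains. Glycerophosphodiesterases such as GPCPD1 and GDPD5 split it into choline and glycerol 3-phosphate. Free choline, taken up by transporters such as SLC44A1 and SLC44A2 or set free in this way, is phosphorylated by CHKA and CHKB, activated by PCYT1A and joined to diacylglycerol by CHPT1, which rebuilds phosphatidylcholine. In the kidney medulla glycerophosphocholine also serves as an organic osmolyte, a small solute that cells gather against a concentrated medium.

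Promoter sequence is shown for 3 of the genes, 1 that was higher, 1 that was lower and 1 whose groups overlapped. The window shown for each was picked because it holds the core letters of the antioxidant response element, the site that NRF2 binds. Other windows of the same genes are not shown. Windows span 250 bases before to 50 bases after a start site, from RefSeq on GRCh38.p14, written 5′ to 3′ on the strand of the gene. Capitals mark matches on either strand to the antioxidant response element core TGACNNNGC or to TGGAAA, the core of the tonicity element bound by NFAT5.
PNPLA6, chr19:7534489-7534788, plus strand: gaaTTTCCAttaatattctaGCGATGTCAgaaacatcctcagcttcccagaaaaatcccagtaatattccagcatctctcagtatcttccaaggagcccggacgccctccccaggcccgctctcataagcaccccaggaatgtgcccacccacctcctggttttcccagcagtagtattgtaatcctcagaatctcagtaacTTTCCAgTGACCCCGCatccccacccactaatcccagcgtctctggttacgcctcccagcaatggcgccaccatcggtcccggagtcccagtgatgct
SLC44A2, chr19:10625303-10625602, plus strand: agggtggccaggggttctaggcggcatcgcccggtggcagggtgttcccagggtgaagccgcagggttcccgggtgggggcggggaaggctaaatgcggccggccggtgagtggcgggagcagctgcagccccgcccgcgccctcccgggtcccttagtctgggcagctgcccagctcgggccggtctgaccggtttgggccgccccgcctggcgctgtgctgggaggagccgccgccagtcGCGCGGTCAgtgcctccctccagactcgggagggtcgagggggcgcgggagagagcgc
GDPD5, chr11:75525892-75526191, minus strand: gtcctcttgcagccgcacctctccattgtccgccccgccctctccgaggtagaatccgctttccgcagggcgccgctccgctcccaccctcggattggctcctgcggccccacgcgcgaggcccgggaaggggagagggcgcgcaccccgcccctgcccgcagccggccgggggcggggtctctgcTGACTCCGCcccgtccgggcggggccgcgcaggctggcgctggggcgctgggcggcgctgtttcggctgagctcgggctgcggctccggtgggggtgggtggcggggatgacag

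The PNPLA6 window held 2 matches to the antioxidant core, starting 230 and 41 bases before the start site, and 2 to the tonicity core, starting 247 and 48 bases before it. No match overlapped another. The SLC44A2 window held 1 antioxidant core, starting 8 bases before the start, and the GDPD5 window 1, starting 64 bases before it. Some windows that are not shown lacked the antioxidant core. The PNPLA6 windows from 7533914 and 7533992, which span its annotated gene start, and the window from 7535467 held no match. The SLC44A2 window from 10602205, which spans its annotated gene start, and the other GDPD5 windows held tonicity cores only. RefSeq windows were matched for 8 of the 10 genes (15 windows, since several genes have more than 1 start), and none was matched for GPCPD1 or CHKA. The antioxidant core was found in 5 of the 15 windows, in GDPD5, PCYT1A, PNPLA6 and SLC44A2, against 13.3% of all 35116 windows. The tonicity core was found in 5 of the 15, in GDPD5, PNPLA6 and SLC44A2, against 20.7% of all windows. The core of the sterol element, TCACNCCAC, was found in 0 of the 15 and in 1.13% of all windows. The windows of PNPLA6 overlap in part and repeat the same letters, and a match describes letters only.

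GPCPD1, the phosphodiesterase that splits glycerophosphocholine, was 3.97-fold lower after KCl, and PNPLA6, the enzyme that makes it, was 1.71-fold higher. GPCPD1 (gene ID 56261, GRCh38 chromosome 20, 5544404 to 5611026, minus strand) was read at 18.4, 17.5 and 17.8 CPM (read counts scaled to library size, by TMM) in the 3 control libraries. It was read at 5.03, 4.25 and 4.19 CPM in the 3 KCl libraries. The KCl libraries all lay far below the control libraries, and within each group the values were close to each other. The means were 17.9 ± 0.456 and 4.49 ± 0.467 CPM (SD, n = 3), 3.97-fold lower with KCl, a log2 fold change of -1.99 ± 0.11 (SE). Among the falls of the 13044 tested genes it ranked 3. The estimated counts behind it were 361, 344 and 338 in control and 94, 79 and 78 in KCl, whole numbers in every library. In bulk RNA, a smaller share of cells that express a gene and less of its RNA per cell cannot be told apart.

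PNPLA6 (gene ID 10908, chromosome 19, 7534004 to 7561764) was read at 49.0, 46.3 and 54.2 CPM in control and at 84.4, 79.8 and 92.0 CPM in KCl. The 2 groups lay clearly apart, with the lowest KCl library well above the highest control library. The means were 49.8 ± 4.02 and 85.4 ± 6.14 CPM, and the log2 fold change of 0.78 ± 0.06 ranked 305 among rises. MCOLN1, a lysosomal channel gene that overlaps PNPLA6 on the same strand in GENCODE 29, went from 40.8 ± 0.964 to 50.5 ± 2.00 CPM (log2 fold change 0.31 ± 0.06, against 0.78 ± 0.06 for PNPLA6). How reads were divided between the 2 genes is not stated.

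**Figure D1:**
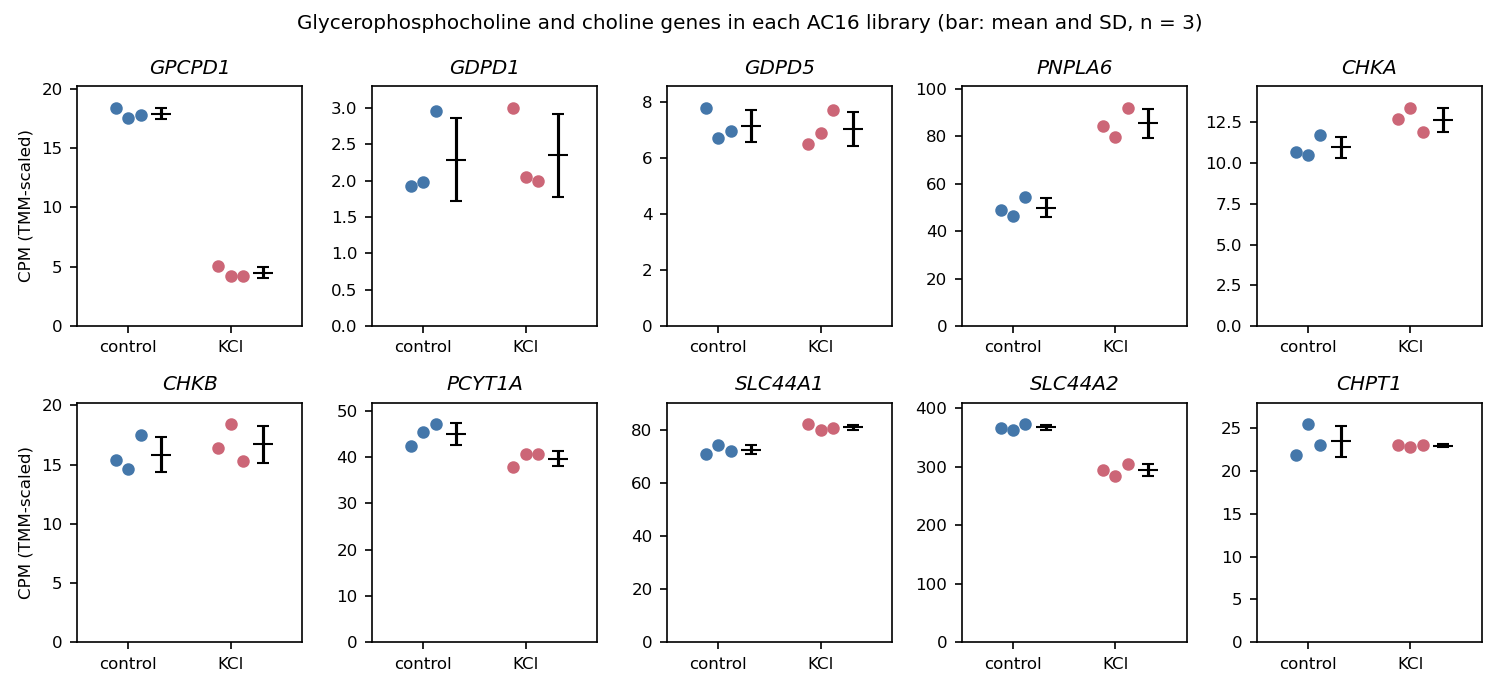
TMM-scaled CPM of each of the 10 genes (y axes, each from 0) in the 3 control libraries (blue) and the 3 KCl libraries (red), with the mean and SD of each group in black. GPCPD1 is near 18 CPM in control and between 4.19 and 5.03 CPM in KCl, PNPLA6 is higher in every KCl library, and the groups of GDPD1, GDPD5, CHKB and CHPT1 overlap.

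The ratio of PNPLA6 RNA to GPCPD1 RNA was higher in every KCl library than in every control library. Levels of different genes are compared here in TPM (a level deposited by the authors and taken as scaled to gene length and library size). The TPM of PNPLA6 divided by that of GPCPD1 was 2.61, 2.55 and 2.87 in the control libraries and 16.4, 18.5 and 22.3 in the KCl libraries. The lowest KCl ratio was far above the highest control ratio. The means were 2.68 ± 0.17 and 19.1 ± 2.99 (SD, n = 3). Ratios to GPCPD1 also rose for the phosphodiesterase genes GDPD5 and GDE1, whose own levels differed little. They went from 0.507 ± 0.0507 to 2.08 ± 0.365 for GDPD5 and from 7.11 ± 0.104 to 28.8 ± 3.35 for GDE1. Because GPCPD1 was chosen for its fall, any such ratio is a description.

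The groups of the other phosphodiesterases of the list overlapped. GDPD5, which also splits glycerophosphocholine and has been described in mouse kidney cells as lowered by high salt, was read at 7.78, 6.70 and 6.95 CPM in control and at 6.48, 6.89 and 7.69 CPM in KCl. Its groups overlapped throughout, with a log2 fold change of -0.03 ± 0.13. GDPD1, which acts on lysophospholipids, was read at 1.93, 1.98 and 2.95 CPM in control and at 3.00, 2.05 and 1.99 CPM in KCl. A single library in each group stood above the other two, so that the groups overlapped and the log2 fold change was 0.04 ± 0.25. GDPD1 rested on 37.2 to 56.0 estimated reads a library, and in 4 of 6 libraries its count was not whole. The gene length implied by its deposited count and FPKM ranged from 1.67 to 2.99 kb between libraries, against 4.13 to 4.45 kb for GPCPD1 and 4.38 to 4.40 kb for PNPLA6. The level of GDPD1 per length is therefore less certain than its count.

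GDE1, a glycerophosphodiesterase that prefers glycerophosphoinositol, was the most abundant of the 7 genes of this enzyme family, at 65.2 TPM in control and 62.1 TPM in KCl, and GDPD3 had 2.95 and 3.56 TPM. Neither passed the test (edgeR adjusted p = 0.64 and 0.46, 0 of 2 also at an unadjusted p under 0.05 and by DESeq2), and GDPD2 and GDPD4 had too few reads to be tested. Summed over the 7 genes, the family stood at 80.0 to 88.4 TPM in control and at 73.4 to 77.1 TPM in KCl. GPCPD1 made up 10.6% to 11.1% of that sum in control and 2.70% to 3.29% in KCl. The family's total was thus mostly GDE1 RNA in both groups. Because GPCPD1 was chosen for its fall, the drop in its share restates that fall and is a description.

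The choline transporters of the list differed between the groups in opposite directions. SLC44A2, a choline transporter-like protein of the plasma membrane and mitochondria, was read at 366, 363 and 372 CPM in control and at 294, 283 and 304 CPM in KCl. Each KCl library was below each control library, 1.25-fold on average, with a log2 fold change of -0.32 ± 0.04. SLC44A1, a choline transporter of plasma and mitochondrial membranes, was read at 71.1, 74.5 and 72.3 CPM in control and at 82.2, 80.2 and 80.8 CPM in KCl. Each KCl library was above each control library, but only 1.12-fold on average, with a log2 fold change of 0.16 ± 0.05. The count of SLC44A1 was not whole in 5 of 6 libraries. The TPM of SLC44A2 relative to SLC44A1 was 6.81 ± 0.0839 in control and 4.59 ± 0.131 in KCl, so SLC44A2 RNA remained the larger in both groups. The implied length of SLC44A1 was 4.37 to 4.59 kb in control and 4.08 to 4.35 kb in KCl. Its TPM, and with it this ratio, therefore differed more between the groups than the counts did.

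Of the choline kinases, CHKA was read at 10.7, 10.5 and 11.7 CPM in control and at 12.7, 13.4 and 11.9 CPM in KCl. The groups were apart by a narrow margin, and the log2 fold change was 0.21 ± 0.10. CHKB was read at 15.4, 14.6 and 17.5 CPM in control and at 16.4, 18.4 and 15.3 CPM in KCl, with overlapping groups and a log2 fold change of 0.08 ± 0.10. CHKB shares its locus with the read-through gene CHKB-CPT1B on the same strand. Its count was whole in all 6 libraries, and how reads of the shared part were assigned is not stated. In TPM CHKB was above CHKA in every library, 2.54 ± 0.13 times in control and 2.35 ± 0.112 times in KCl.

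PCYT1A, which makes CDP-choline and sets the pace of phosphatidylcholine synthesis, was read at 42.5, 45.5 and 47.1 CPM in control and at 37.9, 40.6 and 40.6 CPM in KCl. The KCl libraries were all lower, 1.13-fold on average, with a log2 fold change of -0.18 ± 0.06. CHPT1, the cholinephosphotransferase of the last step, was read at 21.8, 25.4 and 23.0 CPM in control and at 23.0, 22.7 and 23.0 CPM in KCl. The KCl values lay inside the control range, and the log2 fold change was -0.03 ± 0.08.

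Over the 10 genes, 2 were past the threshold of the edgeR test as higher (PNPLA6 and SLC44A1) and 3 as lower (GPCPD1, SLC44A2 and PCYT1A), while 5 were not. Over all tested genes 20.1% were called higher and 18.0% lower, 38.0% in all. Control and KCl values stood apart without overlap at 6 of the 10 genes and at 47.8% of all tested genes. The median log2 fold change of the 10 was 0.006 and that of all tested genes -0.005. The call of GPCPD1 followed from its choice. Since the genes were listed with this contrast known, nothing is read from these calls or shares. The counts for SLC44A1 and PCYT1A rested on single libraries. Without control replicate 1 the 10 genes gave 1 higher and 3 lower, without control replicate 2 or 3 they gave 2 and 2, and without KCl replicate 1 they gave 1 and 2. DESeq2 gave 2 and 2.

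**Figure D2:**
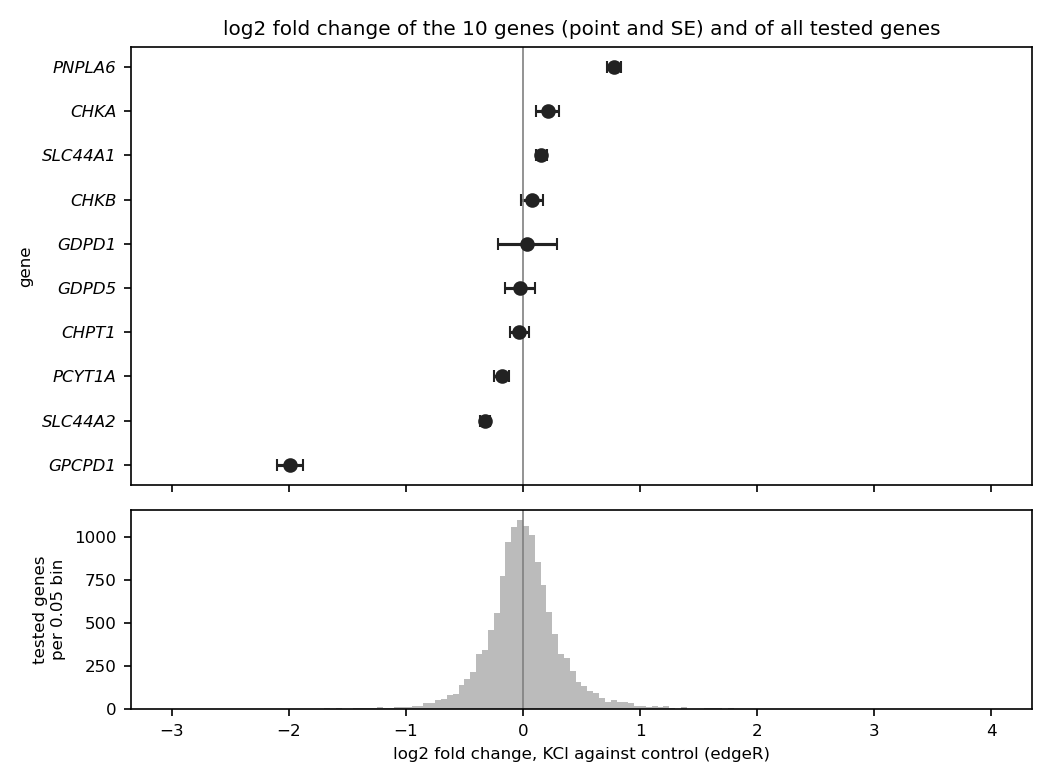
Top, log2 fold change (x axis) of the 10 genes (y axis) with its SE. Bottom, the number of all 13044 tested genes in each step of 0.05 on the same x axis. GPCPD1, at -1.99, stands in the far lower tail, PNPLA6 at 0.78 in the upper tail, and the other 8 lie between -0.32 and 0.21.

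In control cells the order of level per length was SLC44A2 (239 ± 4.61 TPM, SD, n = 3), PCYT1A (45.8 ± 2.58), SLC44A1 (35.1 ± 0.855), CHPT1 (33.4 ± 2.34), PNPLA6 (24.6 ± 2.21), CHKB (22.0 ± 2.27), GPCPD1 (9.16 ± 0.262), CHKA (8.66 ± 0.492), GDPD5 (4.65 ± 0.537) and GDPD1 (2.24 ± 0.728). SLC44A1 and CHPT1 overlapped between libraries, as did PNPLA6 and CHKB, and GPCPD1 and CHKA. The other neighbours in the order did not overlap. The order was the same in FPKM and without each control library in turn.

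In KCl cells GPCPD1 had the lowest mean level of the 10, at 2.18 ± 0.23 TPM, where GDPD1 at 2.33 ± 0.26 overlapped it. PNPLA6, at 41.1 ± 2.63 TPM, was next after SLC44A2, at 187 ± 5.14. The libraries of PNPLA6 overlapped those of SLC44A1 (40.7 ± 1.25), and those of SLC44A1 overlapped PCYT1A (39.4 ± 2.05). Thus GPCPD1 was level with the choline kinase gene CHKA in control and level with GDPD1, the lowest gene of the control order, in KCl.

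**Figure D3:**
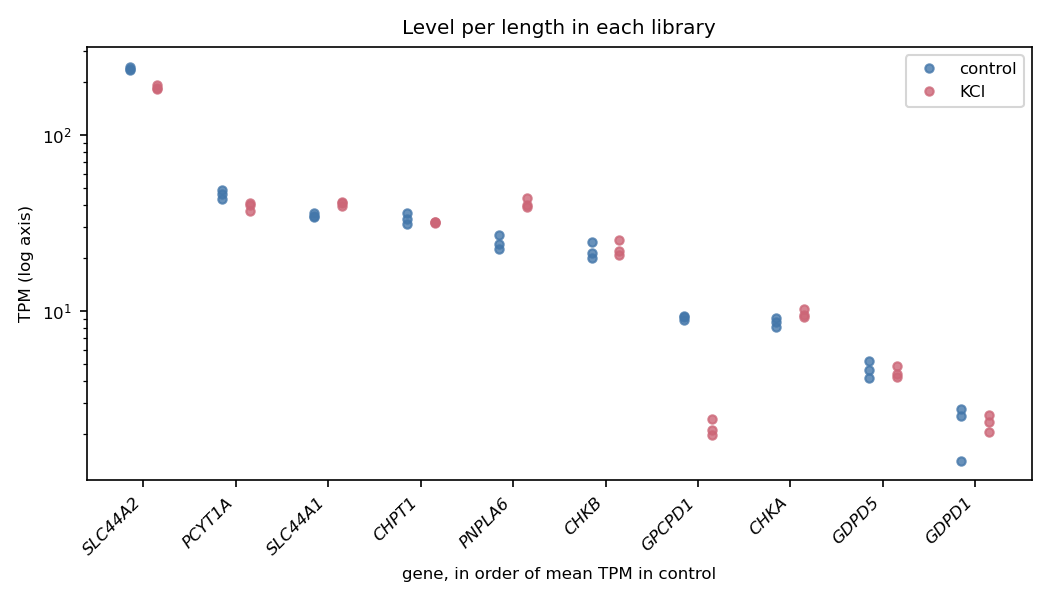
TPM on a log axis (y) of each gene, ordered by mean TPM in control (x), with 1 point per library (control blue, KCl red). GPCPD1 is beside CHKA in control and beside GDPD1 in KCl, and PNPLA6 reaches the level of SLC44A1 in KCl.

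Genes whose pattern over the 6 libraries was most like that of GPCPD1 were found by the distance between log2 CPM profiles, each centred on its own mean. The 5 nearest were the monocarboxylate transporter-family gene SLC16A14 (distance 0.48), the serine dehydratase-like gene SDSL (0.531), the growth factor gene FGF7 (0.634), the SLC16A14 relative SLC16A6 (0.659) and the zinc finger gene ZNF391 (0.679). SDSL went from 11.5 ± 0.423 to 3.88 ± 0.547 CPM and SLC16A14 from 9.09 ± 1.27 to 2.45 ± 0.209 CPM. FGF7, a mitogen for epithelial cells, went from 1.61 ± 0.297 to 0.447 ± 0.134 CPM, and ZNF391 from 1.03 ± 0.0716 to 0.304 ± 0.111 CPM, both at low levels. All of them share the step between the same 3 control and 3 KCl libraries, and the likeness is a description.

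Other genes of the pathway were read from 9 lists by function. Of their 74 genes 65 were tested, and 20 were called higher and 9 lower after KCl (edgeR adjusted p under 0.05), 30.8% and 13.8%, against 20.1% and 18.0% of all tested genes. Without the organic osmolyte genes, listed with their rise known, 16 of 60 were higher (26.7%) and 9 lower. The other lists were also chosen with earlier results of these data known. Nothing is therefore concluded from these shares, or from the medians below, against those of all tested genes. On log2(FPKM + 1) the counts by limma were 14 and 10. The median log2 fold change was 0.10 over the 65 genes, 0.051 without the organic osmolyte genes and -0.005 over all tested genes.

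Among enzymes that free or cut phospholipids, 4 of 14 rose and 1 fell. The lysosomal phospholipase gene PLA2G15 rose from 54.8 ± 2.45 to 65.3 ± 2.53 CPM (log2 fold change 0.25, edgeR adjusted p = 0.00100). PLD1, which cuts choline from phosphatidylcholine, rose by 0.30 ± 0.09 (adjusted p = 0.00697), a call lost by limma on log2(TPM + 1) (adjusted p = 0.17). Of the related thioesterase genes LYPLA1 and LYPLA2, which also act as lysophospholipases, the first fell (-0.30 ± 0.06, adjusted p = 0.000253) and the second rose (0.26 ± 0.06, adjusted p = 0.000627). PNPLA7, the closest relative of PNPLA6, had 0.912 ± 0.301 CPM without and 0.734 ± 0.172 CPM with KCl, and it did not pass.

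Of 8 lysophospholipid acyltransferases, which put a fatty acid back on a lysophospholipid, 5 rose and 0 fell by edgeR (0 lower also at an unadjusted p under 0.05). By DESeq2 and by limma on log2(TPM + 1) 4 rose and 0 fell. LPCAT2, which acts on lysophosphatidylcholine and in platelet-activating factor synthesis, rose 1.46-fold from 25.9 ± 0.173 to 37.9 ± 0.46 CPM (adjusted p = 3.98e-07). MBOAT7, which acts on lysophosphatidylinositol, rose by 0.34 ± 0.05 (adjusted p = 1.45e-06). MBOAT2 rose by 0.34 ± 0.06 (adjusted p = 0.066 by limma on log2(FPKM + 1)) and LPCAT3, which places polyunsaturated chains, by 0.21 ± 0.05 on the log2 scale. The median of the list was 0.21.

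Of 11 genes parallel to the choline branch, edgeR called 2 higher and 2 lower, DESeq2 2 and 1, and limma on log2(TPM + 1) 0 and 3. PEMT, which makes phosphatidylcholine by methylation without free choline, fell from 53.6 ± 0.923 to 44.9 ± 2.67 CPM (log2 fold change -0.26, adjusted p = 0.00167). PCYT2, the ethanolamine counterpart of PCYT1A, rose by 0.20 ± 0.06 (adjusted p = 0.0054), a call lost by limma on log2(TPM + 1) (adjusted p = 0.31). PTDSS2, a phosphatidylserine synthase gene, rose by 0.18 ± 0.06 (adjusted p = 0.0196), a call lost without control replicate 1 (0.1), KCl replicate 1 (0.052) or KCl replicate 3 (0.073). PHOSPHO1, a phosphatase for phosphocholine and phosphoethanolamine, fell from 0.772 ± 0.142 to 0.25 ± 0.135 CPM (adjusted p = 0.0124), a call lost without control replicate 1 (0.0502) or KCl replicate 3 (0.074). The alternatives gave adjusted p-values from 0.018 to 0.1 for PTDSS2 and from 0.0079 to 0.074 for PHOSPHO1. For PHOSPHO1 this range leaves out DESeq2, which gave no adjusted p, and the filter on a mean count of at least 50, which removed the gene.

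Of 11 genes that build phosphatidic acid and diacylglycerol, 3 rose and 2 fell. LPIN1, whose phosphatase makes the diacylglycerol that CHPT1 uses, rose 1.77-fold from 52.8 ± 0.922 to 93.3 ± 4.45 CPM (log2 fold change 0.82 ± 0.05, adjusted p = 7.46e-12). AGPAT4 rose by 0.54 ± 0.11 (adjusted p = 0.000475), while its relatives AGPAT1 and AGPAT3 both fell (-0.21, adjusted p = 0.000320 and 0.00188). In control AGPAT1 stood at 252, AGPAT3 at 35.1 and AGPAT4 at 2.26 TPM. CHPT1 itself, as given above, stayed within the range of its control libraries.

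Glycerol 3-phosphate, the second product of GPCPD1, is made and used by the enzymes of a further list, in which 1 of 5 tested genes rose and 2 fell by edgeR (1 and 0 by DESeq2 and by limma on log2(TPM + 1)). PGP, which removes its phosphate, rose from 40.5 ± 0.983 to 53.5 ± 1.30 CPM (log2 fold change 0.40, adjusted p = 8.37e-06). The glycerol kinase gene GK fell by 0.27 on the log2 scale (SE 0.10, adjusted p = 0.0361) and the dehydrogenase-like gene GPD1L by 0.34 (SE 0.13, adjusted p = 0.0384). The GK call was lost without control replicate 1 (0.052), control replicate 2 (0.12), KCl replicate 2 (0.1) or KCl replicate 3 (0.14). The GPD1L log2 fold change was -0.20 without KCl replicate 1 and -0.53 without KCl replicate 2. The GPD1L call was lost without control replicate 1 (0.11), control replicate 2 (0.1), KCl replicate 1 (0.26) or KCl replicate 3 (0.12). The alternatives gave adjusted p-values from 0.018 to 0.14 for GK and from 0.0025 to 0.26 for GPD1L.

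Of 8 other choline and ethanolamine transporters 3 had enough reads to be tested, and 0 of the 3 passed by edgeR (0 also at an unadjusted p under 0.05 and by DESeq2). SLC44A3 was at 1.15 ± 0.287 CPM without KCl and 1.59 ± 0.222 with it (adjusted p = 0.23), and the choline transporter genes FLVCR1 and FLVCR2 were at -0.04 and 0.16 on the log2 scale. SLC44A4, SLC44A5 and SLC5A7 were among those not tested for want of reads. Among the choline and ethanolamine transporters tested here, SLC44A2 and SLC44A1 had the highest TPM.

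Among 6 genes listed for choline oxidation and betaine, 1 rose and 2 fell by edgeR (1 and 1 by DESeq2 and by limma on log2(TPM + 1)). ALDH7A1, which oxidizes betaine aldehyde to betaine, fell from 108 ± 4.29 to 84.8 ± 2.27 CPM (log2 fold change -0.34, adjusted p = 4.26e-06). BHMT2, a methyltransferase gene related to the betaine methyltransferase gene BHMT, rose by 0.51 ± 0.15 (adjusted p = 0.0103), a call lost without control replicate 1 (0.076). BHMT itself had 0.445 ± 0.104 CPM without and 0.483 ± 0.185 CPM with KCl and did not pass. DMGDH, a dehydrogenase of dimethylglycine, fell from 1.47 ± 0.289 to 0.662 ± 0.306 CPM (adjusted p = 0.0146), a call lost without control replicate 1 (0.072) or KCl replicate 3 (0.099). The alternatives gave adjusted p-values from 0.0036 to 0.076 for BHMT2 and from 0.0093 to 0.099 for DMGDH. The filter on a mean count of at least 50 removed DMGDH and is not in its range. CHDH, the first enzyme of choline oxidation, had under 1 CPM in both groups and did not pass.

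Of 5 tested organic osmolyte genes 4 rose and 0 fell by edgeR (0 lower also at an unadjusted p under 0.05 and by DESeq2). The aldose reductase gene AKR1B1, whose product makes sorbitol, rose from 161 ± 4.14 to 380 ± 26.8 CPM (log2 fold change 1.24, adjusted p = 1.43e-16), and the taurine transporter gene SLC6A6 from 20.1 ± 1.46 to 47.0 ± 3.39 CPM (1.23, adjusted p = 2.22e-12). SLC5A3, for myo-inositol, rose by 0.75 ± 0.07, and the amino acid transporter gene SLC38A2 by 0.68 ± 0.04. NFAT5 did not pass (log2 fold change 0.13, adjusted p = 0.16), and the betaine transporter gene SLC6A12 had too few reads to be tested. The rise of this list was known when the list was made.

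**Figure D4:**
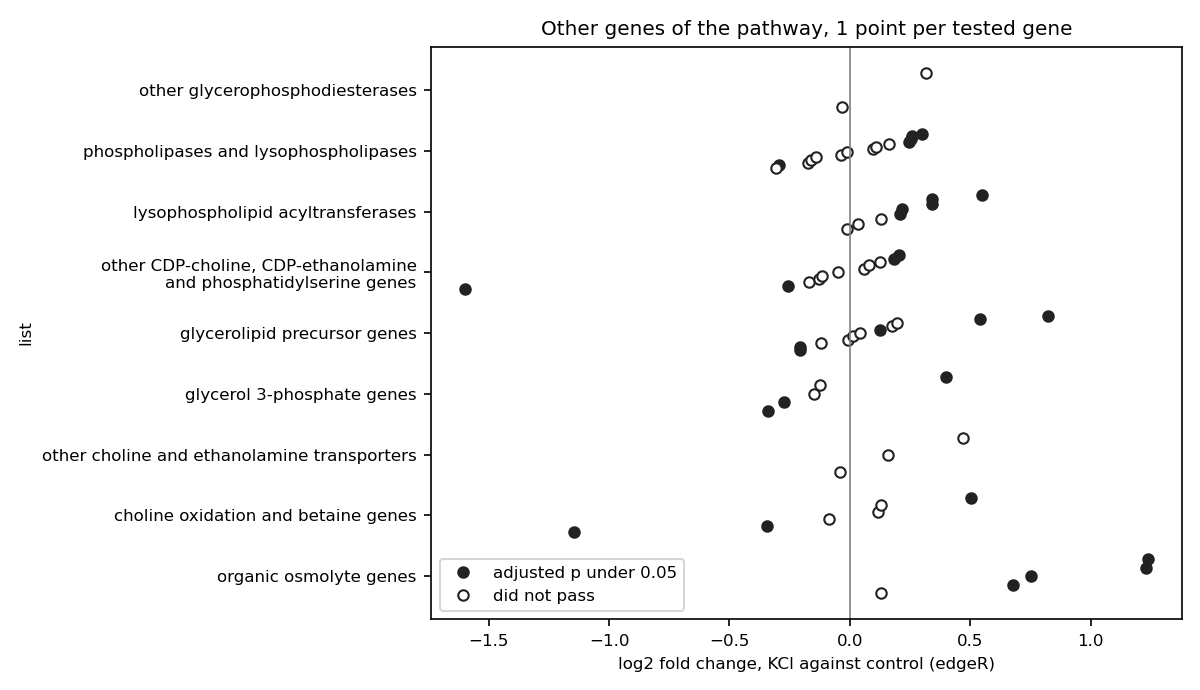
log2 fold change (x axis) of each of the 65 tested genes in the 9 lists (y axis). Filled points had an adjusted p under 0.05 (20 higher, 9 lower) and open points did not pass. The lysophospholipid acyltransferases and the organic osmolyte genes hold filled points only to the right of 0, and the lowest filled point is PHOSPHO1.

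Markers of other cell types also moved between the groups. Of 9 fibroblast markers 8 were called higher, against 20.1% of all tested genes. The remaining marker, COL1A1, was at 4070 to 4390 CPM in control and 3690 to 3940 in KCl, and was not called. The 9 markers summed to 11200 to 11600 CPM (scaled by library totals) in control and 11700 to 12000 in KCl. Epithelial markers summed to 260 to 273 CPM in control and 362 to 384 in KCl, of which KRT18 gave 215 to 227 and 317 to 334. Leukocyte markers summed to 146 to 158 CPM in control and 106 to 111 in KCl, nearly all from CD68, with PTPRC at 1.36 to 2.77 CPM. The sums of the smooth muscle markers overlapped, at 262 to 291 and 261 to 289 CPM, as did those of the cardiomyocyte markers, at 46.6 to 49.1 and 40.0 to 48.0 CPM. Nearly all of the cardiomyocyte sum was GATA4, at 43.4 to 46.6 CPM in control and 36.7 to 45.4 in KCl. Endothelial markers summed to 9.38 to 10.7 and 10.9 to 13.1 CPM. Among single tested markers, 1 of 4 for smooth muscle, 1 of 2 for endothelium and 2 of 4 for epithelium were called higher. Of 4 tested leukocyte markers 1 was called higher and 1 lower, and of 3 tested cardiomyocyte markers 0 were called. The part of these shifts in the values of the 10 genes was not tested.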

How the data were processed

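RNA of 3 control and 3 KCl libraries of AC16 cells was measured by mRNA sequencing. TPM and FPKM were deposited by the authors, per the file headers, and are taken here as scaled to gene length and library size. The authors deposited estimated counts of reads per gene (labelled read count, per the file headers), taken here as estimates and as without normalization. Of these estimates, 11.2% to 11.9% per library were fractional. Reads were placed on GRCh38.p12 (submitters' processing notes). The aligner, the counting tool and the use of strand in counting: not given in the sources used here. Columns were matched to libraries by their control or treated code and number. The deposited group means differed from the library means by at most 3.3e-10.

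Estimated counts were rounded and tested with edgeR 4.0.16 (R 4.3.3): TMM scaling, filterByExpr (minimum count 10, minimum total 15), robust quasi-likelihood fit, two-sided test, and Benjamini-Hochberg adjustment over 13044 genes with a threshold of 0.05. The procedure was tested on simulated data. The SE is the size of the log2 fold change divided by the square root of F. Alternatives were RLE, DESeq2 1.42.0, other filters, limma 3.58.1 on log2(TPM or FPKM + pseudocount of 1, or 0.1 for TPM), non-robust estimation, the replicate number as a block and leaving out each library. Replicate pairs differed beyond sampling noise (chi-square per gene 3.05 to 4.53). A count of 0 allows 3 reads (95% limit), 0.156 to 0.161 CPM, for counting error only. P-values measure the spread between libraries, which may be technical.

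The 10 genes, the 9 lists (other glycerophosphodiesterases, phospholipases, acyltransferases, parallel branches, precursors, glycerol 3-phosphate, transporters, choline oxidation, osmolytes) and the markers were chosen with earlier results of these data known. From each list the text names the 4 genes of smallest p past the threshold, or 1 where none passed. GDE1, PNPLA7, FLVCR1, FLVCR2, CHDH, BHMT, NFAT5 and MCOLN1 were named after their values were seen. Gene positions came from GENCODE 29 (GRCh38), and 19061 of 19386 gene IDs matched the reference gene table. Implied gene length is the count divided by FPKM and by the library total.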

Additional observations from a re-analysis of the deposited data

How the results depend on the processing

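The log2 fold change of GPCPD1 was -1.99, ran from -2.08 to -1.94 without each library in turn, and was -1.68 by limma on log2(TPM + 1) and -1.41 on log2(FPKM + 1), where the pseudocount pulls low genes toward 0. Genes called higher numbered 2621, with 2183 to 2410 without each library in turn and 1594 by limma on log2(FPKM + 1). Genes called lower numbered 2342, with 1878 to 2151 without each library in turn. Of the other pathway genes, 20 were called higher, with 18 to 19 without each library in turn, and 9 lower, with 5 to 9 without each library in turn (5 without KCl replicate 3) and 5 by DESeq2. The cause was not tested. With the replicate number as a block, 2715 genes were higher and 2425 lower, and 20 and 10 of the other pathway genes. The replicate numbers did not pair the libraries (correlation of deviations -0.004, -0.006 and 0.048). Of 415 alternative values of single list genes 37 lost their call, and none changed direction. The 415 include values of GDPD3 and SLC44A3, which had no call to lose. They leave out PHOSPHO1 by DESeq2, which gave it no adjusted p, and genes removed by the filter on a mean count of at least 50, such as PHOSPHO1 and DMGDH. By correlation in place of distance, 1 of the 5 genes most like GPCPD1 was kept, SDSL. Genes under about 1 CPM in either group, such as PHOSPHO1 and DMGDH (0.25 and 0.662 CPM in KCl), rest on few reads and their changes are the least certain.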
